A study of Mus musculus with 32 samples.

Results

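Macrophages and the cells that present antigen to T helper lymphocytes were followed in the mouse left ventricle through 35 genes named by hand as members of this set. Each gene was read from the probe set with its highest mean over all arrays. The array named 18193 genes by a single symbol, and 32 of the 35 members were bright enough to be tested. The samples were 32 left ventricles of C57Bl6 mice, labelled as 10 weeks old, with 1 array per mouse and 4 mice in each of 8 groups. Female and male mice, either wild type or lacking oestrogen receptor beta (the Esr2 product), had transverse aortic constriction (TAC), a surgical narrowing of the aorta that overloads the left ventricle, or a sham operation. Only the 8 knockout TAC mice have labels that state how long the constriction lasted, 9 weeks, and no label states it for wild-type mice, how the knockout was made, or at which point the age was taken. Below, mice are named by group and replicate number, and a stratum is 1 sex of 1 genotype.

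The heart holds macrophages that settled before birth and renew locally, which commonly carry Lyve1, Mrc1, Cd163 and F13a1, and others that arrive from blood monocytes, which carry the chemokine receptor Ccr2 and often galectin-3 (Lgals3). Both kinds depend on the transcription factor PU.1 (Spi1) and on the growth factor receptor Csf1r. They clear dying cells and debris with the help of complement C1q and Fc receptors, and some show peptides on MHC class II molecules, whose alpha and beta chains pair around the invariant chain Cd74. In pressure overload the number and mixture of these cells are known to change.

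The genes of each complex lie together in the genome. C1qb, C1qc and C1qa follow one another on chromosome 4, and H2-Ab1, H2-Aa and H2-Eb1 on chromosome 17, with 0 other coding genes between neighbours in RefSeq (GRCm38.p6). Class II promoters are known to carry an X box and a Y box, and PU.1 binds a purine-rich core. RefSeq promoter windows, 250 bases before to 50 bases after the start of transcription, matched 25 members with 29 windows. C1qa, Tyrobp, Cd14, Csf1r, Itgb2, Cd74, H2-Ab1, Ms4a6d, Lyve1 and Spi1 had none. The promoters of 3 genes are shown, in the direction of their gene and up to the start site, because their genes moved differently: C1qc rose most clearly with TAC, and the class II genes H2-Eb1 and H2-Aa did not pass the test. Capitals mark the motifs found, the PU.1 core GAGGAAGT (read on the opposite strand) in C1qc, the X box AGCAACNG and then the Y box CTGATTGG in H2-Eb1, and the Y box in H2-Aa.
C1qc (chr4:136892915-136893164, minus strand): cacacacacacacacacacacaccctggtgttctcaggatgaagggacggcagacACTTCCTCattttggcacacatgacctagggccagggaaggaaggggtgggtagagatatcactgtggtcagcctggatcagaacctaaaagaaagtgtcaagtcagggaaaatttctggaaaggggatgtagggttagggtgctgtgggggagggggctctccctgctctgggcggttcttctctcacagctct
H2-Eb1 (chr17:34305617-34305866, plus strand): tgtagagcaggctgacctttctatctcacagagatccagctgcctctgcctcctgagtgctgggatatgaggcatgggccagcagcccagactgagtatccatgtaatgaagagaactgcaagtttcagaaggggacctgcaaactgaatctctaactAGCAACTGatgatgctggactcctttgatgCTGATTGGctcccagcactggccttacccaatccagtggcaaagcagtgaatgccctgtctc
H2-Aa (chr17:34287824-34288073, minus strand): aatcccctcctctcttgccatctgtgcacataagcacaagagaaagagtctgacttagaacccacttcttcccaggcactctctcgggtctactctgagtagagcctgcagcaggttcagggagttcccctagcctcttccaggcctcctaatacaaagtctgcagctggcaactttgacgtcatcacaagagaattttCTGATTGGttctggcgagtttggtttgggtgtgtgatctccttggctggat

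In the H2-Eb1 promoter the X box began at -92 and the Y box at -62 relative to the start, and in H2-Aa the Y box began at -51. The PU.1 core lay at -195 in C1qc, and it was also found in the windows of Pf4, at -10, and F13a1, at 14. It occurred in 3 of the 29 member windows (10.3%), against 3.20% of 32851 windows of all genes. The X box occurred in 2 of the 29 (6.90%), H2-Eb1 and Trem2, against 5.14% of all, and the Y box in 2 (6.90%), H2-Aa and H2-Eb1, against 4.10%. Both strands were searched, the motifs do not overlap one another, and a match in a window is a description and not a measured binding site. Only these exact letters were searched, with N for any base, so a box with other letters was missed. The lack of an X box match in H2-Aa therefore does not show that its promoter has no X box.

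Most of the set was higher after TAC. Averaged over the 4 strata, 22 of the 32 tested members were higher after TAC and 0 were lower, where 23.5% of the 11014 genes tested were higher and 17.8% lower (limma, Benjamini-Hochberg adjusted p under 0.05 over all genes tested). The median change of the 32 members was 0.48 on the log2 scale, against 0.02 over all genes tested. Values are log2 of the array signal plus 32, so a difference of 1 is a doubling of signal plus 32, which understates the fold change of dim genes. The changes are grouped by role in the plot of the 32 members. With 32 whole ventricles, a gain in cells of a type and a gain in RNA per cell cannot be told apart.

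**Figure D1:**
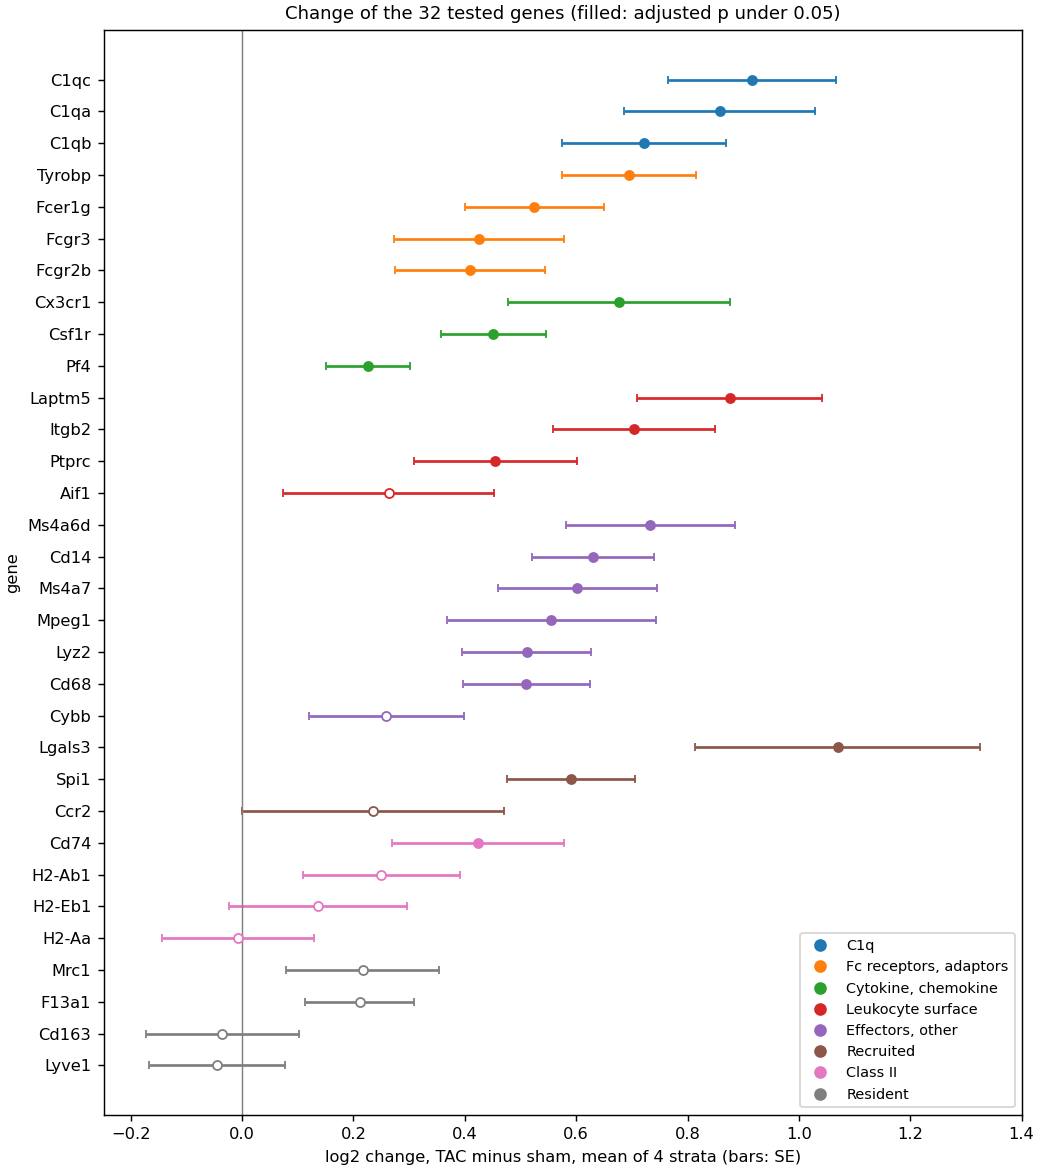
Horizontal axis: log2 change, TAC minus sham, averaged over 4 strata, with its SE as a bar. Vertical axis: the 32 tested genes, coloured by role. Filled points passed an adjusted p of 0.05, which 22 genes did, all to the right of 0. The 4 resident genes and 3 of the 4 class II genes are open.

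The complement C1q chains, which start the classical pathway and tag dying cells for removal, rose together, 3 of 3. C1qc changed by 0.92 ± 0.15 (SE), or 1.89-fold, with an adjusted p of 1.71e-05, the smallest of the set. C1qa changed by 0.86 ± 0.17 and C1qb by 0.72 ± 0.15. All 3 probe sets of C1qb passed, with changes of 0.61 to 0.95. The 4 tested Fc receptor and adaptor genes also rose, 4 of 4. Tyrobp, the signalling adaptor also called DAP12, changed by 0.69 ± 0.12 (adjusted p = 3.67e-05), Fcer1g, the shared Fc receptor gamma chain, by 0.52 ± 0.12, the activating receptor Fcgr3 by 0.43 ± 0.15 and the inhibitory receptor Fcgr2b by 0.41 ± 0.13. Of the 4 Fcgr2b probe sets above the level used for testing, 1 passed, with changes from 0.04 to 0.41.

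Receptors and chemokines of macrophages rose in 3 of 3 cases. Cx3cr1, the fractalkine receptor, changed by 0.68 ± 0.20, Csf1r by 0.45 ± 0.09 and the platelet factor Pf4 by 0.23 ± 0.07. Among the leukocyte genes, 3 of 4 tested rose. They were Laptm5, a lysosomal membrane protein of blood cells (0.88 ± 0.17), the integrin chain Itgb2 (0.70 ± 0.14) and Ptprc, or CD45 (0.46 ± 0.15), while Aif1 stood at 0.26 ± 0.19 (adjusted p = 0.273). Of the 7 tested effector genes, 6 rose, by 0.51 to 0.73. They were the endotoxin co-receptor Cd14, the lysosomal Cd68, lysozyme Lyz2, Ms4a7, Ms4a6d and the pore-forming Mpeg1. Cybb, the catalytic chain of the phagocyte oxidase, stood at 0.26 ± 0.14 (adjusted p = 0.135), and its 3 probe sets went from -0.27 to 0.32. The highest of them, a dimmer one, passed in the fit of all probe sets (adjusted p = 0.0397).

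Recruited and resident genes gave different counts. Lgals3 changed by 1.07 ± 0.26, or 2.10-fold, and Spi1 by 0.59 ± 0.12, whereas Ccr2 did not pass (0.23 ± 0.23, adjusted p = 0.441), so 2 of 3 recruited genes rose. None of the 4 resident genes did, where 23.5% of all genes tested were higher. Lists of 3 and 4 genes are too short for these counts to set the lists apart. Spi1 was listed as recruited, though both kinds of macrophage depend on it. Mrc1, the mannose receptor, stood at 0.22 ± 0.14, F13a1, a coagulation factor chain, at 0.21 ± 0.10, the haemoglobin scavenger receptor Cd163 at -0.04 ± 0.14 and the hyaluronan receptor Lyve1 at -0.05 ± 0.12, with adjusted p-values of 0.210, 0.0825, 0.858 and 0.790. At an unadjusted p under 0.05, F13a1 alone of the 4 passed in the limma fit, where 49.8% of all genes did. F13a1 also passed the adjusted threshold without knockout female TAC mouse 3, without wild-type male TAC mouse 1 and without wild-type female sham mouse 4. The recruited and resident changes themselves were not tested against each other as lists.

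Of the class II genes, 1 of 4 rose, a share near the 23.5% of all genes. Cd74, the invariant chain, changed by 0.42 ± 0.15 (adjusted p = 0.0280), and it no longer passed without knockout male TAC mouse 3 or without knockout male sham mouse 2. In the limma fit of all probe sets Cd74 did not pass either (adjusted p = 0.0502). With a control probe ratio, 3-prime over 5-prime, as a covariate its change was 0.01 (Gapdh, adjusted p = 0.975) or 0.46 (beta-actin, adjusted p = 0.419). H2-Ab1 stood at 0.25 ± 0.14, H2-Eb1 at 0.14 ± 0.16 and H2-Aa at -0.01 ± 0.14, with adjusted p-values of 0.157, 0.515 and 0.971. H2-Ab1 passed without wild-type female TAC mouse 2. The 4 H2-Aa probe sets above the level stood between -0.01 and 0.07. The other 3 members were too dim for the test, with Itgam at 0.21, Trem2 at 0.23 and Gpnmb at 0.36 on the fit of all genes, none passing. A second Trem2 probe set, also below the level, stood at 0.52 and passed in the fit of all probe sets (adjusted p = 0.0313). Over all 35 members, 32 had a positive change and the median was 0.45.

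The changes in single strata rest on 4 TAC against 4 sham mice each. Their SE and p-values use 1 spread per gene estimated from all 32 arrays. In wild-type females 0 of 32 members passed, where 3.28% of all genes did in either direction, and 5 of 32 had an unadjusted p under 0.05 in limma (15.6%, against 16.2% of all genes). In wild-type males 1 of 32 was higher, Cd14, where 3.11% of all genes were higher, so the count is at the background share, and 16 had an unadjusted p under 0.05 (19.6% of all genes). In knockout females 0 of 32 passed, where 5.58% of all genes did in either direction, and 11 had an unadjusted p under 0.05 (20.1% of all genes), with a smallest adjusted p of 0.0531, that of C1qc. In knockout males 13 of 32 were higher and 0 lower, where 19.6% of all genes were higher and 12.9% lower, and 17 had an unadjusted p under 0.05 in either direction (53.1%, against 44.1% of all genes). The median change of the 32 members was 0.43 and 0.50 in knockout females and males and 0.40 and 0.52 in their wild-type counterparts.

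**Figure D2:**
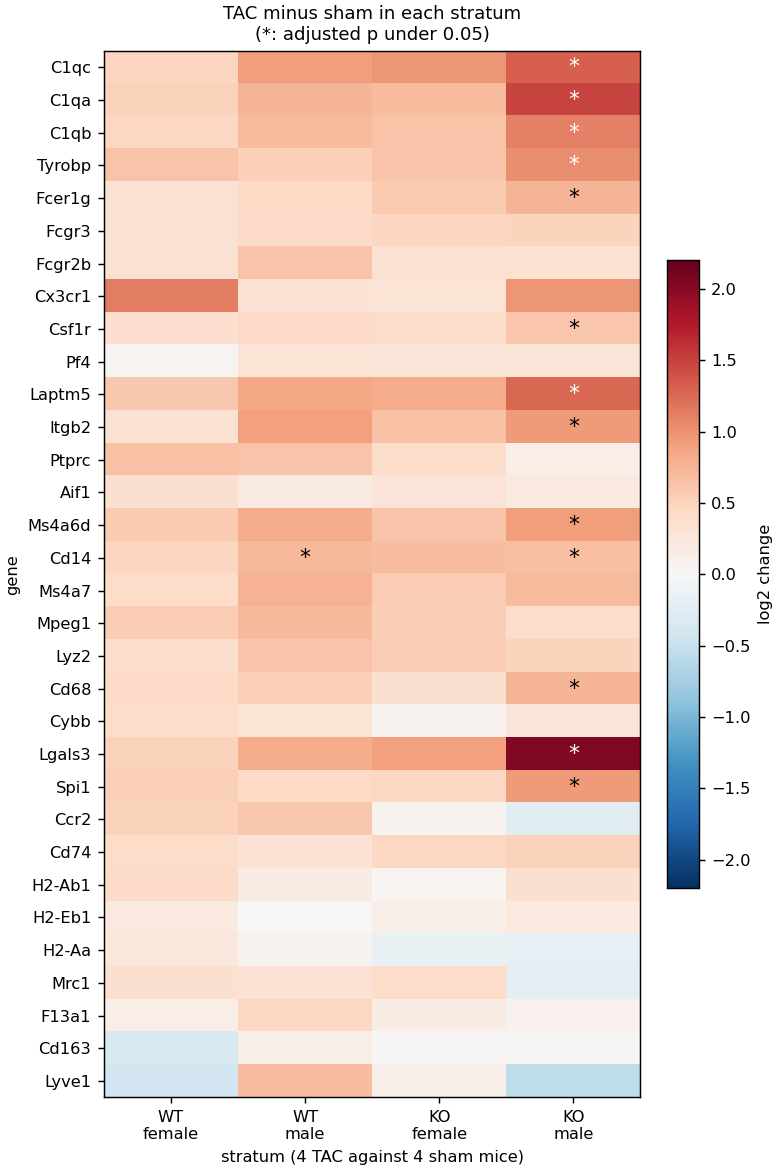
Rows: the 32 tested genes, ordered as in the plot by role. Columns: the 4 strata. Colour: log2 change, TAC minus sham, red higher after TAC, from -2.2 to 2.2. An asterisk marks an adjusted p under 0.05. Asterisks stand in 13 rows of the knockout male column and 1 of the wild-type male column, and most cells of all columns are red, with Lyve1 blue in wild-type females and knockout males.

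The 13 genes that rose in knockout males were C1qa (1.48 ± 0.34), C1qb, C1qc, Tyrobp, Fcer1g, Cd14, Cd68, Csf1r, Laptm5, Itgb2, Ms4a6d, Lgals3 (2.04 ± 0.51) and Spi1. Cd14 alone passed in 2 strata, 12 members passed in 1 and 19 in none. The count of 13 fell to 7 without knockout male TAC mouse 3 and without sham mouse 2, and to 8 without sham mouse 1, and it was 5 when only these 8 mice were fitted and 7 or 2 with the Gapdh or beta-actin control probe ratio, 3-prime over 5-prime, as a covariate. Shares of all genes in these fits are not given here. In wild-type males the count of 1 went to 9 without TAC mouse 1 and to 0 in 20 of the 32 fits that each left out 1 mouse. In wild-type females it went from 0 to 1 (Cx3cr1) without sham mouse 4. Without knockout female TAC mouse 4 the count of that stratum went from 0 to 3 (C1qc, Cd14 and Laptm5). That more members passed in knockout males is not a difference between strata. The TAC response differed between strata for 0 of 32 members and 0% of all genes in each of 4 tests (limma), of sex within each genotype and of genotype within each sex. At an unadjusted p under 0.05, Lyve1 was the single member in 2 of these tests, sex in wild type and genotype in males, and 0 members passed in the others. The shares of all genes were 1.8% for sex in wild type, 7.29% for sex in knockouts, 2.85% for genotype in females and 13.8% for genotype in males.

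The intervals of these differences are wide. The C1qc response in knockout males exceeded that in wild-type males by 0.39 ± 0.43, that of Tyrobp by 0.50 ± 0.34 and that of Lgals3 by 1.22 ± 0.72. For Cd14 the same difference was -0.05 ± 0.31. A missing call therefore does not show that the strata responded alike.

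Cd14 is the member named by the rule for passing in 2 strata. Wild-type males had log2 values of 8.81, 8.81, 9.13 and 8.59 after sham and 9.02, 9.86, 9.82 and 9.50 after TAC, a change of 0.71 ± 0.22 (adjusted p = 0.0486). Knockout males had 8.75, 9.00, 9.22 and 9.05 after sham and 9.67, 8.93, 10.00 and 10.07 after TAC, a change of 0.66 ± 0.22 (adjusted p = 0.0209). In each of these strata 3 of 4 TAC mice lay above every sham mouse and 1 lay inside the sham range. Knockout females, at 8.78, 8.98, 8.88 and 8.98 after sham and 9.52, 9.68, 9.99 and 9.12 after TAC, did not overlap, though Cd14 did not pass there (0.67 ± 0.22, adjusted p = 0.0639). Wild-type females had 8.69, 8.73, 8.80 and 9.11 after sham and 9.47, 9.19, 9.74 and 8.80 after TAC, with 1 TAC mouse inside the sham range. The Cd14 change was thus 0.47 to 0.71 in every stratum. Its call in wild-type males was lost under 27 of 44 alternative settings (highest adjusted p = 0.277) and that in knockout males under 7, while it passed the mean comparison under all 44.

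Tyrobp and C1qc are shown mouse by mouse as well, chosen after their values were seen. Tyrobp values after sham were 9.57, 9.58, 9.63 and 9.88 in wild-type females, and after TAC 10.21, 9.90, 11.08 and 9.99. Wild-type males had 9.72, 9.66, 9.82 and 9.41 after sham and 9.88, 10.35, 10.54 and 9.91 after TAC. Knockout females had 9.41, 9.62, 9.61 and 9.68 after sham and 10.32, 10.09, 10.59 and 9.81 after TAC. The groups did not overlap in these 3 strata, although Tyrobp passed in none of them. In knockout males, where it passed (1.01 ± 0.24, adjusted p = 0.00245), the values were 9.32, 9.13, 9.73 and 9.98 after sham and 9.83, 10.35, 11.23 and 10.80 after TAC, and sham mouse 4 lay above TAC mouse 1. Counting members whose TAC and sham mice did not overlap gave 8 of 32 in knockout females, 1 in knockout males, 3 in wild-type females and 7 in wild-type males, all higher after TAC. Over all genes tested, 5.78%, 11.5%, 7.82% and 9.85% were higher without overlap in these strata. The order of the strata by this count is thus not their order by the adjusted p.

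For C1qc the knockout male sham mice were divided. They had log2 values of 9.98, 9.81, 11.19 and 11.24, and the TAC mice 11.90, 11.18, 12.23 and 12.15, a change of 1.31 ± 0.30 (adjusted p = 0.00188). Sham mice 1 and 2 lay below every mouse of the other 7 groups, while sham mice 3 and 4 lay above TAC mouse 2. C1qa showed the same division, with 10.09, 9.69, 11.64 and 11.65 after sham and 12.30, 11.52, 12.56 and 12.63 after TAC. The beta-actin control probe ratio of knockout male sham mouse 2, 1.10, was the highest of all mice. Next came wild-type male sham mouse 3 at 0.77, and knockout male sham mouse 1 had 0.67. The Gapdh ratio of sham mouse 2, -0.32, lay inside the range of its group. Without sham mouse 2, C1qa, C1qb and C1qc still passed in knockout males. With the beta-actin ratio as a covariate they did not, and with that of Gapdh they did. The cause of these ratios was not tested. Wild-type males had C1qc values of 10.87, 10.34, 10.86 and 10.32 after sham and 11.36, 11.64, 12.02 and 11.04 after TAC, with no overlap (0.92 ± 0.30, adjusted p = 0.0679). Knockout females had 10.66, 11.19, 10.46 and 10.28 after sham and 11.71, 12.18, 11.58 and 11.01 after TAC, and wild-type females 10.70, 10.50, 10.86 and 10.80 after sham and 11.22, 10.74, 11.88 and 10.89 after TAC. In both female strata 3 of 4 TAC mice lay above every sham mouse.

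**Figure D3:**
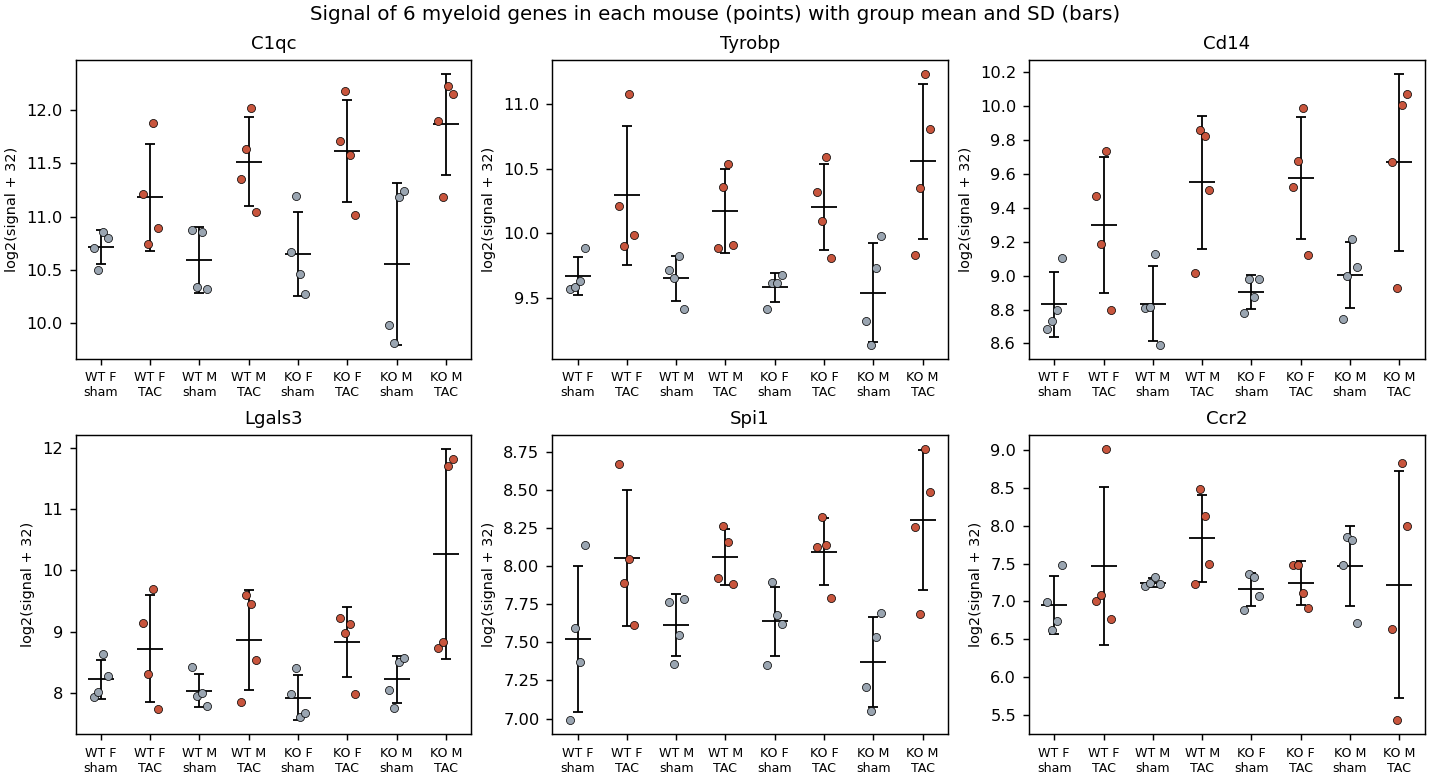
Each panel is 1 gene and each point 1 mouse, with grey for sham and red for TAC. Vertical axis: log2(signal + 32). Horizontal axis: the 8 groups (WT wild type, KO knockout, F female, M male). Bars give the group mean and SD, n = 4. Lgals3 in knockout male TAC mice falls into 2 values near 8.8 and 2 above 11.6, and Ccr2 is spread widest in that group.

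Lgals3, a secreted galactose-binding lectin of activated macrophages, changed most of all members in knockout males, and 2 mice lay far above the rest. The 4 knockout male TAC mice had log2 values of 8.74, 8.83, 11.69 and 11.81, against 8.05, 7.76, 8.50 and 8.58 after sham, a change of 2.04 ± 0.51 (adjusted p = 0.00350). The groups did not overlap, but TAC mice 1 and 2 lay just above the highest sham mouse. Lgals3 did not pass when knockout males alone were fitted (limma, adjusted p = 0.0612). In wild-type females the sham values were 7.94, 8.02, 8.64 and 8.28 and the TAC values 9.15, 8.31, 9.70 and 7.74. In wild-type males they were 8.43, 7.95, 8.01 and 7.79 after sham and 7.86, 9.60, 9.46 and 8.55 after TAC. In knockout females they were 7.98, 8.42, 7.62 and 7.67 after sham and 9.22, 8.98, 9.13 and 7.98 after TAC. In each of these 3 strata at least 1 TAC mouse lay inside the sham range, and no mouse reached the values of knockout male TAC mice 3 and 4.

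The same 2 mice were high for Ccr2, the receptor that brings monocytes out of the blood. Knockout male TAC mice had 6.64, 5.43, 8.83 and 8.0, against 7.49, 7.86, 7.81 and 6.71 after sham, so that 2 TAC mice lay below every sham mouse and 2 above. The mean change there was -0.24 ± 0.47 (adjusted p = 0.716). Ccr2 was dim, with a mean of 7.33 over all mice, and the 2 low TAC mice lay below the tested level of 7.11. A second Ccr2 probe set above the level stood at -0.03 in knockout males. In wild-type females it stood at 0.15, where the first stood at 0.51. Wild-type female TAC mouse 3 had 9.02, where the other 3 had 6.76 to 7.08 and the sham mice 6.62 to 7.49. Spi1 was more even. Its wild-type male values were 7.76, 7.36, 7.55 and 7.79 after sham and 7.92, 8.26, 8.16 and 7.88 after TAC, with no overlap, and in knockout males 7.21, 7.05, 7.54 and 7.69 after sham and 8.25, 7.69, 8.77 and 8.49 after TAC, a change of 0.93 ± 0.23 (adjusted p = 0.00326).

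Lyve1, carried by resident macrophages and by lymphatic endothelium, had TAC values of opposite sign in males of the 2 genotypes, though neither passed the test. Wild-type males had 10.17, 9.80, 9.87 and 9.81 after sham and 9.51, 10.97, 11.06 and 10.86 after TAC, a change of 0.68 ± 0.24 (adjusted p = 0.0964). Knockout males had 10.33, 10.34, 10.31 and 9.56 after sham and 9.75, 9.54, 9.52 and 9.51 after TAC, a change of -0.56 ± 0.24 (adjusted p = 0.0792). In each stratum 1 mouse lay apart from its group. Wild-type male TAC mouse 1 was the lowest of its stratum, and knockout male sham mouse 4 lay inside the TAC range. The difference of -1.24 ± 0.35 between them did not pass either (adjusted p = 0.225). Leaving out wild-type male TAC mouse 1 gave a difference of -1.60 (adjusted p = 0.0155), and leaving out knockout male sham mouse 4 gave -1.43 (adjusted p = 0.0273).

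The second Lyve1 probe set above the level matched only in part. It stood at 0.80 in wild-type males, but at 0.12 in knockout males, where the brighter probe set stood at -0.56. The negative value in knockout males was thus seen on 1 of 2 probe sets. Females had smaller changes on the brighter probe set, with -0.43 ± 0.24 in wild type, from 10.27, 10.16, 10.41 and 10.53 after sham to 9.69, 10.37, 9.85 and 9.75 after TAC, and 0.12 ± 0.24 in knockouts. Of the markers that lymphatic endothelium also carries, Flt4 rose with TAC over the 4 strata (0.39 ± 0.06) and in knockout males (0.55 ± 0.12), while the transcription factor Prox1, which cardiac muscle cells also express, fell (-0.86 ± 0.18 and -1.35 ± 0.35). Their part in the Lyve1 values was not tested.

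The other resident genes overlapped between TAC and sham in every stratum. Mrc1 lay above the sham range in wild-type male TAC mice 2 to 4 (10.78, 11.11 and 10.61, against 10.03 to 10.42 after sham), and TAC mouse 1 of that group had 9.73. F13a1 also lay above the sham range of 10.75 to 11.16 in TAC mice 2 to 4, with 10.79, 11.60, 11.88 and 11.33 in the 4 TAC mice. Wild-type male TAC mouse 1 was the lowest of its group for all 4 resident genes. Cd163 had its lowest and highest values of all groups in TAC mice, 8.17 in a knockout female and 10.23 in a knockout male.

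**Figure D4:**
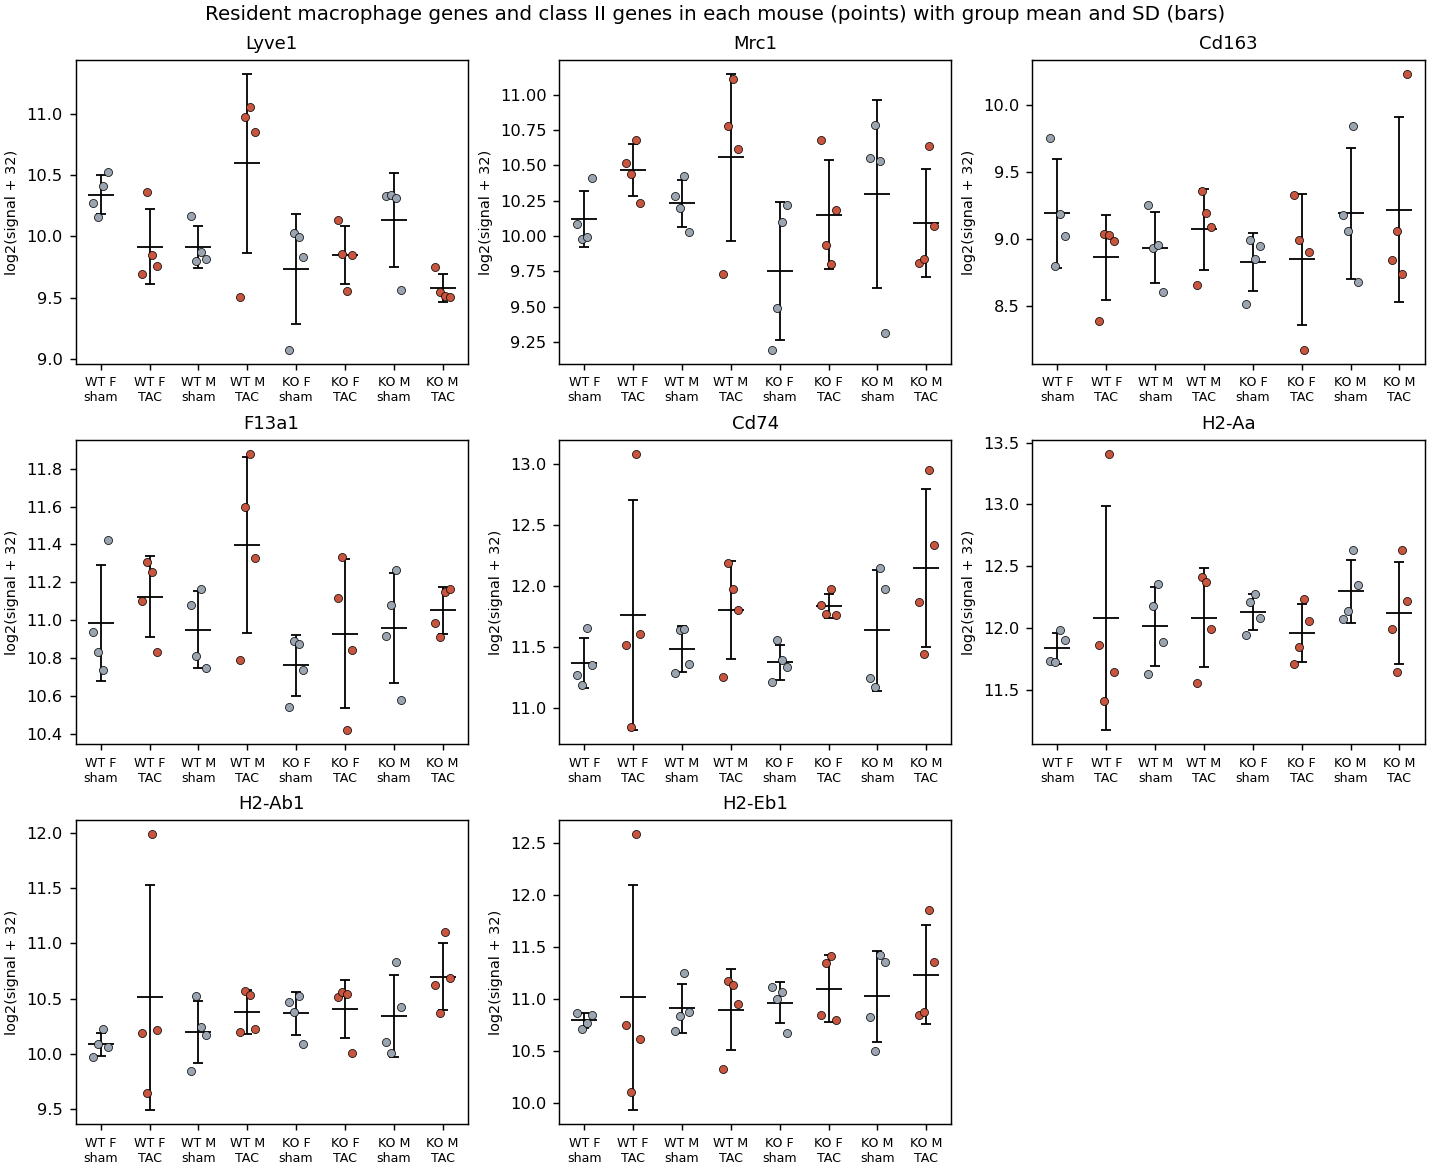
Each panel is 1 gene and each point 1 mouse, with grey for sham and red for TAC. Vertical axis: log2(signal + 32). Horizontal axis: the 8 groups (WT wild type, KO knockout, F female, M male). Bars give the group mean and SD, n = 4. In the 4 class II panels 1 wild-type female TAC mouse lies above all others, at 13.08, 13.41, 11.99 and 12.58, and Lyve1 is high in 3 of 4 wild-type male TAC mice.

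For the class II genes a single mouse set the mean of wild-type female TAC hearts. Mouse 3 of that group had 12.58 for H2-Eb1, where the other 3 had 10.75, 10.11 and 10.61 and the sham mice 10.87, 10.71, 10.77 and 10.84. None of the other 3 TAC mice lay above the highest sham mouse for this gene, and 2 lay below the lowest. The same mouse had 13.41 for H2-Aa, against 11.86, 11.41 and 11.64 in the rest of its group, 13.08 for Cd74, against 11.51, 10.84 and 11.61, and 11.99 for H2-Ab1, against 10.19, 9.64 and 10.22. It was the highest of all 32 mice for all 4 genes. In knockout females Cd74 was the class II member whose groups did not overlap, at 11.21, 11.55, 11.39 and 11.33 after sham and 11.84, 11.77, 11.97 and 11.76 after TAC (0.46 ± 0.31, adjusted p = 0.427).

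Mean values per mouse show how the groups of genes moved side by side. The mean of the 3 recruited genes lay above sham by 0.91 in knockout males, 0.48 in knockout females, 0.62 in wild-type males and 0.51 in wild-type females. The mean of the 4 resident genes differed by -0.16, 0.18, 0.40 and -0.07 in the same order, and that of the 4 class II genes by 0.23, 0.12, 0.14 and 0.32. The recruited difference thus exceeded the resident one by 1.07, 0.31, 0.22 and 0.58, most in knockout males and least in wild-type males. Knockout male TAC mice had recruited means of 7.88, 7.31, 9.76 and 9.43, against 7.55 to 7.95 after sham, so mice 3 and 4 carried the difference. Of the recruited genes there, Lgals3 (2.04) and Spi1 (0.93) were higher and Ccr2 was not (-0.24). These means carry no test, since the lists were chosen with results of these mice known. The recruited mean includes Spi1, on which both kinds of macrophage depend.

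**Figure D5:**
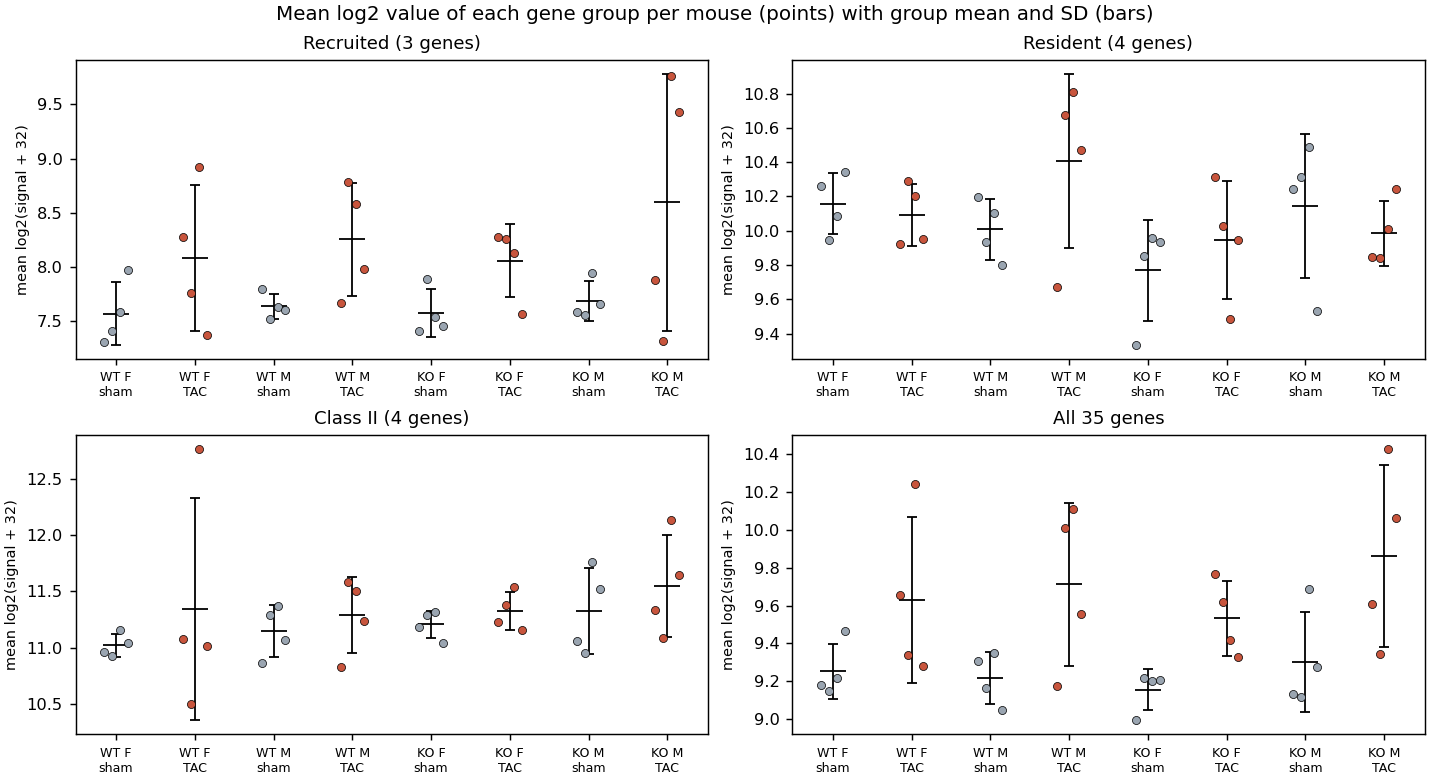
Each point is 1 mouse, grey for sham and red for TAC. Vertical axis: mean log2(signal + 32) over the genes of a list. Horizontal axis: the 8 groups (WT wild type, KO knockout, F female, M male). Bars give the group mean and SD, n = 4. Recruited genes reach 9.76 and 9.43 in 2 knockout male TAC mice, and class II genes reach 12.77 in 1 wild-type female TAC mouse.

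Single mice were high or low for most members at once. Wild-type female TAC mouse 3 was the highest of its group for 28 of the 35 members, and knockout male TAC mouse 3 for 26. Wild-type male TAC mouse 1 was the lowest of its group for 28, and its mean over all 35 members, 9.18, lay inside the sham range of 9.05 to 9.35, where the other 3 TAC mice had 9.55 to 10.11. Fibroblast markers followed in that mouse, with a summed signal over 10 genes of 41656, against 70238 to 107128 in the other 3 and 39804 to 52025 after sham. The wild-type male count without this mouse is given above. Leaving out the lowest TAC mouse of most members raises their TAC means, so that count does not measure its part.

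Summed signals of markers listed for other leukocytes were also high in some of these mice. The summed signal of 9 neutrophil genes was 2763 in wild-type female TAC mouse 3, against 595 to 735 in the rest of its group, and 2029 and 1993 in knockout male TAC mice 3 and 4, against 505 and 649 in mice 1 and 2. Knockout male sham mouse 3 had 1606, against 409 to 581 in the other sham mice. In this list S100a8 and S100a9 reached signals of 1019.4 and 1114.5, and the next highest, Csf3r, reached 210.3. Only S100a8 was above the level tested, so high neutrophil sums rest mainly on these S100 genes. The 8 B cell genes summed to 1733 and the 13 T and NK cell genes to 1021 in wild-type female TAC mouse 3, each the highest of all mice. No marker was listed at 0, but the T cell receptor chain Cd3e averaged a signal of 19.8 and 12 of the 13 T and NK cell genes were below the level tested. The part of other leukocytes in the member values was not tested.

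Fibroblast and RNA measures moved with TAC as well, beside the members. Over the 4 strata 23.5% of all genes tested were higher and 17.8% lower. Of 10 fibroblast markers 6 rose and 0 fell, led by periostin, Postn (2.67 ± 0.27), and the collagen chains Col1a2 (1.29 ± 0.13) and Col1a1 (1.78 ± 0.19). The summed signal of the 10 markers ranged from 41656 to 116653 after TAC and from 29629 to 53449 after sham. Of 10 cardiomyocyte markers 3 fell, Ryr2, Pln and Tnni3, and 0 rose. For 10 genes, 3 lower is not far from the share of all genes. The summed signal of the cardiomyocyte markers, 314830 to 697280 over all mice, marks the tissue as heart muscle. The highest of these sums was that of wild-type female TAC mouse 1, and the next highest mouse had 478256. The 3-prime over 5-prime log2 difference of the beta-actin control probe sets, a measure of RNA integrity and of labelling, was lower after TAC in every stratum, by 0.31 to 0.41, with no overlap of mice (exact permutation test, two-sided, p = 0.0286 in each, the smallest that 4 against 4 mice can give, adjusted p = 0.0457 over 8 comparisons). That of Gapdh was higher by 0.06 to 0.09 (exact p from 0.0286 to 0.143). With the beta-actin measure as a covariate, 3 of 32 members passed the mean comparison (Cd14, Tyrobp and Ms4a6d), with a median change of 0.48 and a median SE of 0.29 in place of 0.14. With the Gapdh measure, 5 passed (Cd14, Laptm5, Spi1, C1qb and C1qc), with a median change of 0.32. Of all 11014 genes tested, 868 passed in either direction with the beta-actin measure and 2040 with that of Gapdh, in place of 4539. The member counts under both covariates, all higher after TAC, were near the shares of all genes in either direction. Shares of genes higher alone, used for the main comparison, are not given for these fits. The cause of these control ratios was not tested.

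Other genes of the same pathways, from lists chosen with earlier results of these mice known, gave the following counts over the 4 strata, to be read against the 23.5% of all genes higher and 17.8% lower. Of 25 other macrophage genes 13 rose and 0 fell (median 0.24), led by Cd52 (0.94 ± 0.16), the oxidase component Ncf1 (0.61 ± 0.11) and the scavenger receptor Stab1 (0.37 ± 0.08). Of 12 genes that signal downstream of Fc receptors and Tyrobp 11 rose and 0 fell, among them Plcg2 (0.55 ± 0.09), the kinase Syk (0.57 ± 0.09) and Coro1a (0.92 ± 0.17), with a median of 0.42. Of 16 chemokines, growth factors and their receptors 7 rose and 1 fell. The fractalkine gene Cx3cl1, the ligand of Cx3cr1, changed by 0.91 ± 0.13, Cxcl16 by 0.53 ± 0.12 and Csf1, a ligand of Csf1r, by 0.39 ± 0.10.

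Class II processing was mixed, with 5 of 11 genes higher and 1 lower. H2-DMa, which loads peptide onto class II molecules, changed by 0.50 ± 0.10 and the protease Lgmn by 0.65 ± 0.15, while Nfyc, a subunit of the factor that binds the Y box, fell by 0.26. Of 7 other complement genes 2 rose, C1ra (0.54 ± 0.11), whose protease joins C1q, and the inhibitor Serping1 (0.44 ± 0.10), and the membrane regulator Cd59a fell by 0.58, so the complement counts were near the shares of all genes. Of 10 alternative activation and repair genes 7 rose and 2 fell. Retnla, a marker of alternatively activated macrophages, fell by 1.77 (adjusted p = 4.97e-10), in the direction opposite to Igf1 (0.91 ± 0.13) and the matrix protease Mmp14 (0.74 ± 0.13).

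No member passed between sham hearts by sex or by genotype. Between female and male sham mice 0 of 32 members passed, where 0.0726% of all genes did, and between knockout and wild-type sham mice 0 of 32, where 1.5% did (limma). At an unadjusted p under 0.05 the counts were 0 and 0, against 5.83% and 16.5% of all genes. Member differences ran from -0.33 (Mrc1) to 0.29 (C1qa) for female minus male and from -0.42 (Aif1) to 0.36 (Cx3cr1) for knockout minus wild type. For C1qa the SE of the sex difference was 0.24 and for Lyve1 that of the genotype difference 0.17 (-0.19), so differences of this order would not be seen with these numbers of mice.

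All arrays had a 2% trimmed mean of 500, so their even brightness is no check of quality. The median signal ran from 101.6 to 127.8, and correlations within groups were 0.914 to 0.988 over genes. Xist, expressed from the inactive X chromosome, separated the sexes, at log2 values of 12.25 to 12.98 in females and 6.51 to 7.68 in males. The Esr2 probe set gave signals of 25.8 to 196.8 in knockout mice and 3.6 to 67.7 in wild-type mice. No source used here places its probes inside or outside the deleted part, and it checks no label.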

How the data were processed

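Total RNA of 32 left ventricles was measured on Affymetrix 430 2.0 arrays, 1 mouse each. The authors deposited 1 linear intensity for each probe set. The submitters' processing notes name MAS5 5.0, and the values show a 2% trimmed mean of 500 on every array. Of 45101 probe sets, 34945 carry 1 gene symbol in the platform annotation, 932 several and 9160 none; those with several or none were not named. Values were taken as log2(signal + 32), with 1 probe set per gene (highest mean), and genes whose mean lay at or above the median of all non-control probe sets (7.11, a signal of 106.08) were tested.

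Contrasts of the 8 group means, 11 in all, were fitted in limma 3.58.1 (R 4.3.3, eBayes with trend), two-sided, with Benjamini-Hochberg adjustment over 11014 genes. The fit was checked on simulated data. Control ratios used exact permutation tests of 4 against 4 mice (scipy 1.17.1). With no batch in the labels, p-values measure the spread between mice, and the number of arrays limits precision. Members and lists were chosen with earlier results of these data known. Values by mouse were to be shown for members past the threshold in 2 single strata, in a response difference or in a sham comparison, and for resident, recruited and class II genes, and up to 3 genes of each other list were to be named by smallest p. Alternatives covered normalization, centring, pseudocount, filter, probe set choice, replicate block, trend, groups fitted, RNA control ratios and leaving out each mouse.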

Additional observations from a re-analysis of the deposited data

Results flagged for a closer look

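In groups of 4 mice a value was marked when its gap to the nearest other mouse exceeded 0.829 of the range of the group. Of 280 series of 1 gene in 1 group 15 were marked, and of 80 series of list means 4, where chance marks about 1 in 20. Values are log2(signal + 32).

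Lyve1 was marked in 3 groups. Wild-type male TAC mouse 1 was low at 9.51, knockout male sham mouse 4 low at 9.56 and knockout male TAC mouse 1 high at 9.75. The first of these mice lay apart from TAC mice and the second apart from sham mice of their stratum, which is where the Lyve1 difference between genotypes changed its call when either was left out.

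Wild-type female TAC mouse 3 was high for Fcgr2b (10.18) and Ccr2 (9.02). Knockout female TAC mouse 1 was high for Ptprc (9.58) and Cx3cr1 (8.38), and mouse 4 of that group low for H2-Ab1 (10.01). Knockout female sham mouse 2 was high for C1qa (11.77) and low for Itgam (6.10), a member below the level tested, and mouse 1 of that group low for the mean of the resident genes (9.33) and of all 35 members (8.99).

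Among the others, wild-type female sham mouse 4 was high for Laptm5 (9.07) and for the mean of Csf1r, Cx3cr1 and Pf4 (10.16), and wild-type female TAC mouse 1 low for Cd163 (8.39). Knockout male sham mouse 3 was high for Ms4a7 (8.88) and for the mean of the 5 leukocyte genes (8.72), mouse 4 of that group low for Mpeg1 (8.04), and knockout male TAC mouse 3 high for Gpnmb (8.24).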

How the results depend on the processing

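The mean TAC comparison kept 19 to 22 calls under another normalization (quantile, or median centring of arrays), a smaller or larger pseudocount, a looser or stricter filter, the mean of all probe sets of a gene, the replicate block, eBayes with no trend and the fit of only the groups compared. It fell to 5 with the Gapdh control ratio as a covariate and to 3 with that of beta-actin, an alternative chosen after seeing the data. The calls over all genes fell as well, from 4539 to 2040 and 868. In wild-type males, where Cd14 was the 1 call, the count was 0 under quantile normalization, the larger pseudocount, no filter, no trend and both covariates, and 6 in the fit of those groups alone. In knockout females it was 2 with median-centred arrays. In knockout males it was 7 with the Gapdh covariate, 2 with the beta-actin covariate and 5 in the fit of those groups alone. Leaving out each mouse in turn gave 21 to 23 calls in the mean comparison, 7 to 16 in knockout males, 0 to 3 in knockout females, 0 to 9 in wild-type males, 0 to 1 in wild-type females and 0 to 1 for the response of knockout minus wild-type males. The cause was not tested where no covariate was named. Replicate numbers did not pair the mice, with correlations of same-numbered mice from -0.61 to 0.58 and a median of 0.01. With the replicate block there were 14 calls in knockout males, 2 in knockout females and 2 in wild-type males, and the 22 calls of the mean comparison were the same genes. No sign of a called value turned. Dim genes are limited by signal over background, and the 3 members below the level have no test.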
